A study of Mus musculus with 4 samples.

Results

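The genes described here shape the sperm head through the manchette and the nuclear envelope or join the head to the tail. They are 9 genes, *Spem1*, *Hook1*, *Rimbp3*, *Meig1* and *Lrguk* of the manchette, *Sun3*, *Spag4* and *Sun5* of the SUN-domain family and *Spata6* of the head-neck junction. They were found as the probe sets to which the platform annotation gives exactly 1 gene symbol that is one of these names, which gave 9 of the 18193 genes with such a probe set, and 13 of the 45101 probe sets of the array. Testis RNA came from 2 WT and 2 *Ccnyl1*-/- mice of the C57BL/6 strain, all adult at 2 months, untreated and kept free of specific pathogens, with 1 Affymetrix array per mouse. The *Ccnyl1*-/- mice were bred from heterozygous pairs and carry a KO-first allele in every cell, in which LacZ with a stop codon and a polyA signal interrupts the gene. The array screen asked which transcripts change when this cyclin is lost.

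The manchette is a transient skirt of microtubules that surrounds the nucleus of the elongating spermatid. It narrows the nucleus from behind and carries proteins and vesicles towards the centrosome and the growing tail. SUN-domain proteins span the inner nuclear membrane and bind nesprins of the outer membrane, and this bridge, the LINC complex, ties the nucleus to the microtubules outside. Mice that lack single genes of this group have misshapen, bent or detached sperm heads.

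None of these genes passed the test. The values are MAS 5.0 signals, linear intensities scaled array by array, and limma compared the genotypes on log2(signal + 16) over the 32438 probe sets with a mean signal of at least 32. Of the 13 probe sets of the group, 12 were bright enough to be tested, and 0 of the 12 had an adjusted p under 0.05 (Benjamini-Hochberg over all probe sets tested), where 0.0123% of all probe sets did. At an unadjusted p under 0.05 from limma there was 1 of the 12, against 6.05% of all (3.47% higher and 2.59% lower in *Ccnyl1*-/- testes). The log2 fold changes of *Ccnyl1*-/- over WT ran from -0.18 for *Sun5* to 0.21 for *Hook1*, with 6 negative and 6 positive. Negative values made up 45.2% of all tested probe sets, and 52.8% of the 10333 that are at least as bright as the dimmest of the 12. The median of the 12 was -0.03, beside 0.02 over all tested probe sets and -0.0074 over those 10333. For 12 of the 12 the 95% interval stayed inside 1.5-fold in both directions, beside 46.8% of all tested probe sets (75.8% stayed inside 2-fold) and 94.8% of the 10333 that are at least as bright as the dimmest of them. With 2 mice per genotype a rearrangement of single values cannot reach 0.05, since the smallest two-sided p of an exact permutation test is 0.333, so the p-values given are those of limma. These p-values and the intervals set each difference against a spread between mice. limma estimates that spread in part from all tested probe sets and lets it follow the mean signal. Intervals of fits without that trend were not computed, so the count inside 1.5-fold holds for this fit alone.

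**Figure D1:**
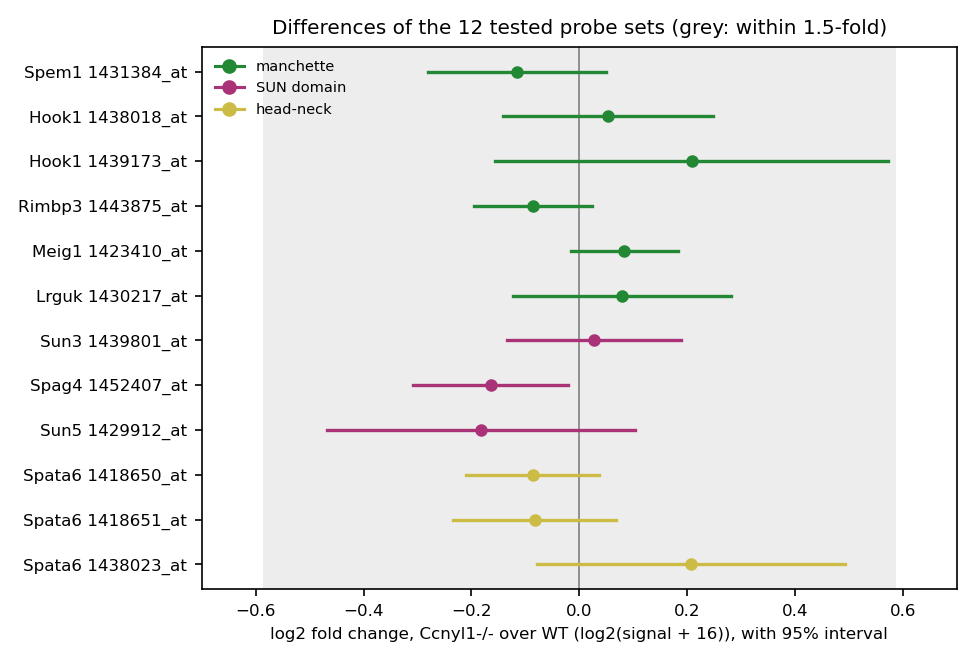
Difference (*Ccnyl1*-/- minus WT testis) in log2(signal + 16) for the 12 tested probe sets, a log2 fold change, with the 95% interval from limma as a line and the colour giving the group of the gene. In this fit, whose variance follows the mean signal, all 12 intervals lie inside the grey band of 1.5-fold either way. Only that of *Spag4* leaves out 0.

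At 6 of the 12 tested probe sets the mice of one genotype lay wholly apart from those of the other, against 35.9% of all. The *Ccnyl1*-/- mice were above both WT mice at 3 of them, where 20.6% of all probe sets are, and below both at 3, where 15.3% are. The probe sets above were those of *Meig1* and *Lrguk* and 1 of *Spata6*. Those below were *Rimbp3*, *Spag4* and another of *Spata6*. Among the 10333 probe sets at least as bright as the dimmest of the 12, 1862 were above and 2244 (21.7%) below.

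On the arrays the disruption of *Ccnyl1* was visible at its target, where 40.4% of the WT signal remained. The only probe set of *Ccnyl1* had signals of 2256 and 2425 in WT and 921 and 969 in *Ccnyl1*-/- testes, which is -1.29 ± 0.09 (standard error) on the log2 scale, with an adjusted p of 0.00463 by limma. The call is lost, at the same fold change, in limma without the trend of the variance (adjusted p = 0.596) and by the methods' t-test (adjusted p = 0.723). None of the 9 genes shares chromosome 1 with *Ccnyl1*. They lie on chromosomes 2 (*Meig1*, *Sun5* and *Spag4*), 4 (*Hook1* and *Spata6*), 6 (*Lrguk*), 11 (*Spem1* and *Sun3*) and 16 (*Rimbp3*). The trimmed mean signal was 500.0 on each array, the correlation of log2 signals between 2 arrays ran from 0.977 to 0.980, and the ratio of the 3' to the 5' signal of *Actb*, a sign of RNA quality, was 1.87 and 1.78 in WT testes, and 1.83 and 1.74 without *Ccnyl1*. Whole testis was measured, so fewer cells of a type and less RNA per cell cannot be told apart.

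**Figure D2:**
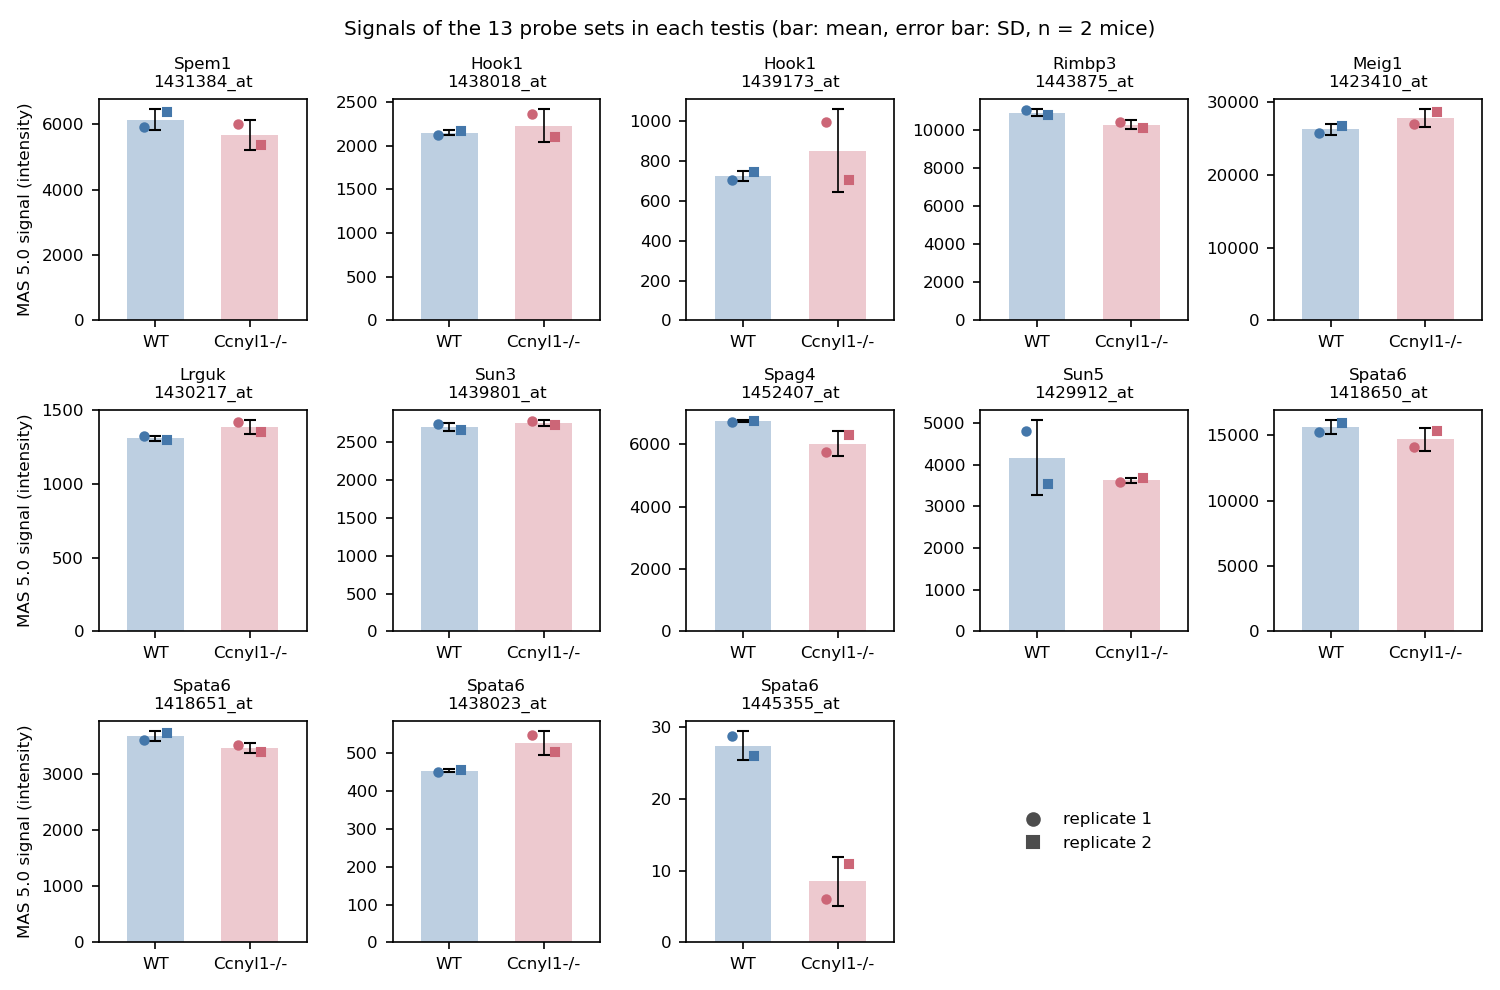
MAS 5.0 signal (intensity) of the 13 probe sets in each testis, drawn as the mean of 2 mice (bars) with the SD (error bars), circles for replicate 1 and squares for replicate 2, and each axis starting at 0. The genotypes lie close together in every panel but the last, the dim *Spata6* probe set, and the mice of 1 genotype lie far apart for *Sun5* in WT and for the dimmer *Hook1* probe set in *Ccnyl1*-/- testes.

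*Spem1* encodes a protein of elongating spermatids that is needed to clear the cytoplasm from the head, and without it the head stays folded against the neck. Its probe set (1431384_at) had signals of 5927 and 6366 in WT and 5998 and 5358 in *Ccnyl1*-/- testes. The genotypes overlapped, because *Ccnyl1*-/- replicate 1 lay between the WT mice. The mean was 6147 ± 311 (SD, n = 2) for WT, against 5678 ± 452 (SD, n = 2) without *Ccnyl1*, 92.4% of WT. The log2 fold change was -0.12 with a 95% interval from -0.28 to 0.05 (adjusted p = 0.855 from limma), and without 1 mouse it ran from -0.20 to -0.03.

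*Hook1* encodes a linker of cargo to microtubules and is the gene mutated in the azh mouse, whose sperm heads are abnormal in shape. On its brighter probe set (1438018_at) the WT mice had 2127 and 2169 and the *Ccnyl1*-/- mice 2363 and 2102. On the dimmer one (1439173_at) the WT mice had 705 and 744 and the *Ccnyl1*-/- mice 997 and 705. In both cases *Ccnyl1*-/- replicate 1 was the highest of the 4 mice and replicate 2 the lowest, though level with WT replicate 1 on the dimmer probe set, so the genotypes overlapped. The log2 fold changes were 0.05 (-0.14 to 0.25) and 0.21 (-0.16 to 0.57), and without *Ccnyl1*-/- replicate 1 both turned negative, to -0.03 and -0.04. The first was also just below 0, at -0.0018, with the arrays scaled to one median. The log2 ratio of the dimmer to the brighter probe set was -1.57 and -1.52 in WT testes, and -1.23 and -1.56 without *Ccnyl1*, so that replicate 1 of the *Ccnyl1*-/- mice stood apart there as well (exact permutation test, two-sided p = 0.667).

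*Rimbp3* encodes a manchette protein that binds HOOK1, and its loss also deforms the head. Its signals (1443875_at) were 11041 and 10809 in WT and 10444 and 10134 in *Ccnyl1*-/- testes. Both *Ccnyl1*-/- mice lay below both WT mice, by a small margin. It differed by -0.09 on the log2 scale, with an interval from -0.20 to 0.02 (adjusted p = 0.840 from limma), and leaving out each mouse in turn kept it between -0.11 and -0.06.

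*Meig1* encodes a small protein of the manchette that is needed for the building of the tail. Its signals (1423410_at) were 25672 and 26722 in WT and 26922 and 28600 in *Ccnyl1*-/- testes. Both *Ccnyl1*-/- mice lay above both WT mice, although WT replicate 2 and *Ccnyl1*-/- replicate 1 were nearly level. This is 0.08 on the log2 scale, and its interval, from -0.02 to 0.18, was the narrowest of the 12 (adjusted p = 0.832 from limma). Without 1 mouse it ran from 0.04 to 0.13.

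*Lrguk* encodes a protein with leucine-rich repeats and a guanylate kinase domain that is found at the manchette and the basal body of the tail. Its signals (1430217_at) were 1322 and 1297 in WT and 1417 and 1353 in *Ccnyl1*-/- testes. The *Ccnyl1*-/- mice were again above both WT mice. The log2 fold change was 0.08 with an interval from -0.12 to 0.28 (adjusted p = 0.913 from limma).

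Among the SUN-domain genes, *Spag4*, also called *Sun4*, came closest to a difference. Its protein lies in the part of the spermatid nuclear envelope that faces the manchette, and heads stay round without it. The signals (1452407_at) were 6723 and 6761 in WT and 5741 and 6300 in *Ccnyl1*-/- testes. Both *Ccnyl1*-/- mice were below the WT mice, which differed little from each other. The mean was 6742 ± 27.3 (SD, n = 2) for WT, against 6020 ± 395 (SD, n = 2) without *Ccnyl1*, 89.3% of WT. The log2 fold change was -0.16 with an interval from -0.31 to -0.02 (adjusted p = 0.797 from limma). It was the one with an unadjusted p under 0.05 (0.0292 from limma), and ranked number 1182 of the 32438 by p. That p was 0.227 in limma without the trend of the variance and 0.133 by the methods' t-test. Without 1 mouse the log2 fold change ran from -0.23 to -0.10. Over the alternatives with all 4 mice the adjusted p was at least 0.582 from limma.

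*Sun3*, a spermatid partner of *Spag4* in the nuclear envelope beside the manchette, was the most even of the group. Its signals (1439801_at) were 2737 and 2656 in WT and 2774 and 2722 in *Ccnyl1*-/- testes, and the genotypes overlapped. On the log2 scale the difference was 0.03 (-0.13 to 0.19, adjusted p = 0.969 from limma) and became -0.03 with the arrays scaled to one median.

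*Sun5* encodes the SUN protein that anchors the tail to the head at the neck, and sperm lacking it lose their heads. The signals (1429912_at) were 4803 and 3535 in WT and 3587 and 3675 in *Ccnyl1*-/- testes. WT replicate 1 stood above the other 3 mice, which lay close together. The mean of 4169 ± 897 (SD, n = 2) for WT therefore carries a wide error, beside 3631 ± 62.0 (SD, n = 2) in *Ccnyl1*-/- testes. The log2 fold change of -0.18 (-0.47 to 0.10, adjusted p = 0.864 from limma) rests on that mouse: it was 0.04 without WT replicate 1 and -0.40 without WT replicate 2, where the adjusted p was 0.162 from limma.

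*Spata6* encodes a protein of the connecting piece, and its loss likewise separates head from tail. It is read by 4 probe sets, which did not point the same way. The brightest (1418650_at) had 15208 and 15967 in WT and 14062 and 15313 in *Ccnyl1*-/- testes, a log2 fold change of -0.09 (-0.21 to 0.04, adjusted p = 0.855 from limma, and -0.15 to -0.03 without 1 mouse). The next (1418651_at) had 3607 and 3733 in WT and 3526 and 3401 in *Ccnyl1*-/- testes, a log2 fold change of -0.08 (-0.23 to 0.07, adjusted p = 0.880 from limma). The third (1438023_at) was higher, with 450 and 455 in WT and 547 and 503 in *Ccnyl1*-/- testes, a log2 fold change of 0.21 (-0.08 to 0.49, adjusted p = 0.855 from limma). The genotypes overlapped on the brightest probe set and lay apart on the next 2, in opposite directions. The log2 ratio of the third probe set to the brightest was -5.03 and -5.08 in WT testes, and -4.64 and -4.88 without *Ccnyl1*, so that the mice of the genotypes lay apart, which gives the smallest p this design allows (exact permutation test, two-sided p = 0.333). The ratio of the 2 brighter probe sets hardly moved, by 0.0035 on the log2 scale.

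The fourth *Spata6* probe set (1445355_at) was too dim for the test, with 28.8 and 26.0 in WT and 6.11 and 10.9 in *Ccnyl1*-/- testes. All 4 values are under the minimum of 32, where a MAS 5.0 signal is close to background. Tested without a minimum signal, its difference was -0.83 ± 0.33 (standard error) on the log2 scale, with an adjusted p of 0.844 by limma. No such difference was seen on the brighter probe sets of the gene.

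**Figure D3:**
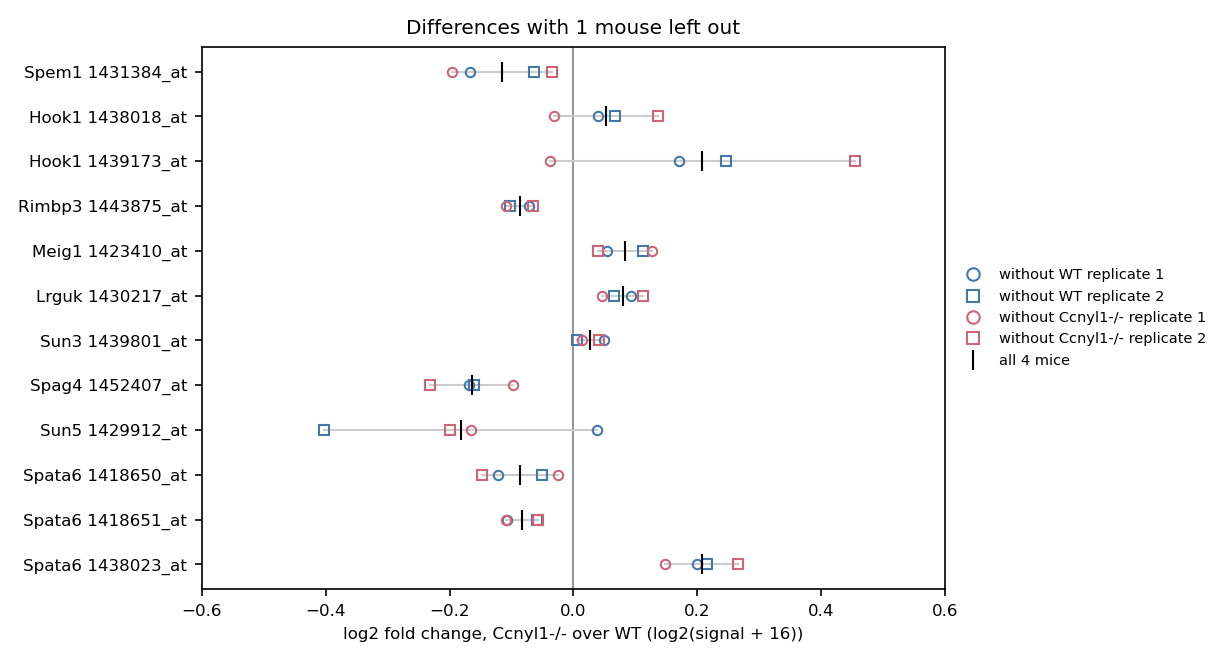
Difference (*Ccnyl1*-/- minus WT testis) in log2(signal + 16) for the 12 tested probe sets, with 1 mouse left out at a time (circles and squares, blue for a WT and red for a *Ccnyl1*-/- mouse) and with all 4 mice (black tick). The sign turns for *Sun5* without WT replicate 1 and for both *Hook1* probe sets without *Ccnyl1*-/- replicate 1, while the other 9 stay on their side of 0.

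The promoter windows of these genes were read as well, since many genes of spermatids are switched on by CREM through the cAMP response element. RefSeq windows of 250 bases before to 50 after the start (GRCm38.p6) were at hand for 8 of the 9 genes, all but *Rimbp3*, in 12 windows. The palindrome TGACGTCA is in the windows of *Lrguk* and *Spag4*, 2 of the 8 genes, or 2 of the 12 windows, and in 1.79% of all 32851 windows. The shorter TGACG, which the palindrome contains, searched on both strands, is in those of *Lrguk*, *Meig1*, *Spag4* and *Spata6*, 5 of the 12 windows (20.8% of all windows). GTTGCC, the core of the site of RFX factors, is in those of *Lrguk* and *Spem1* (2 of the 12, 12.5% of all), and TATAAA in that of *Lrguk* (1 of the 12, 13.6% of all). The windows that hold the palindrome, in capitals, are shown because they are the only ones of the group that do, and their genes differed in sign, with -0.16 for *Spag4* and 0.08 for *Lrguk*. That of *Spag4* lies at chr2:156064963-156065262 and that of *Lrguk* at chr6:34029198-34029497, both on the plus strand, with the palindrome at bases 214 to 221 and 225 to 232 of the window. A match is a run of letters, and binding was not measured.
Spag4: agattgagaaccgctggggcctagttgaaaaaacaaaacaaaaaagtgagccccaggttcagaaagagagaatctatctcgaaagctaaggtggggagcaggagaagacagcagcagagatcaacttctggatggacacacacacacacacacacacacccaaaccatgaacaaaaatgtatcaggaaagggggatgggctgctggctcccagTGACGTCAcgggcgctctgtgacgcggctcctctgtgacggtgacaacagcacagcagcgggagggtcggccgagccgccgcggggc
Lrguk: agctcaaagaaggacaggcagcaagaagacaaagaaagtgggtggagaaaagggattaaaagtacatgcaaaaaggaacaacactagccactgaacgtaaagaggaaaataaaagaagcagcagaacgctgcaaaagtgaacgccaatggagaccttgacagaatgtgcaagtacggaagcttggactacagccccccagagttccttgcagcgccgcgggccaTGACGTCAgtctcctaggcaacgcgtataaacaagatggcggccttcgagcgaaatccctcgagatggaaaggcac

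Other genes of the same structures also stayed short of the test. They were taken from 5 lists, each gene by its brightest tested probe set, and 0 genes of any list had an adjusted p under 0.05 from limma. Medians ran from -0.04 to -0.01, beside 0.00 over all 15268 tested genes, and -0.09 over the 9 genes by their brightest probe sets. Bright genes leaned the same way in general: of the 4537 genes whose mean signal reached 1000, 60.1% lay below 0, and their median was -0.02.

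Of 15 tested genes of the LINC complex and the nuclear envelope, 6 lay above 0 and 9 below on the log2 scale (median -0.02). An unadjusted p under 0.05 from limma was found for 1 of the 15, *Dpy19l2*, beside 961 of all 15268 tested genes. *Dpy19l2*, which fixes the acrosome to the nuclear envelope, had 0.20 and *Lbr*, the lamin B receptor, 0.15. *Syne4*, a nesprin, had -0.86 on a dim probe set and 0.58 on another, and *Lmnb1*, which encodes lamin B1, -0.15 and -0.25. Of the SUN genes of most tissues, *Sun1* had -0.09 and, on another probe set, -0.21, and *Sun2* had -0.0040 and -0.02.

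Of 25 genes of the manchette and its transport, 10 lay above 0 and 15 below on the log2 scale (median -0.03). Of the 25, 0 had an unadjusted p under 0.05 from limma, beside 961 of all 15268 tested genes. *Klc3*, a kinesin light chain of spermatids, had -0.34, with signals of 1055 and 1199 in WT and 763 and 1031 in *Ccnyl1*-/- testes. *Katnal2*, a katanin relative, had -0.20 and, on a second probe set, -0.18. *Spag6*, a gene of the axoneme, had 0.18 and *Hook3*, a paralog of *Hook1*, 0.16. *Spag16*, another gene of the axoneme, had -0.10 and, on a dimmer probe set, 0.05, and *Hook2*, another *Hook1* paralog, 0.03.

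Of 18 genes of the head-tail coupling apparatus and neck, 5 lay above 0 and 13 below on the log2 scale (median -0.03). Of them, 4 had an unadjusted p under 0.05 from limma. Among all 15268 tested genes 961 did, and among the 4537 whose mean signal reached 1000, 437 did. The *Ccnyl1*-/- mice lay below both WT mice for 6 of the 18, beside 18.3% of all tested genes and 27.6% of those whose mean signal reached 1000. *Actl9*, an actin relative of the sperm head, had the farthest value, -0.25 (adjusted p = 0.645 from limma), with 8222 and 8700 in WT and 7034 and 7208 in *Ccnyl1*-/- testes, but its other probe set had -0.04. *Pmfbp1*, a gene of the neck, had -0.17, with 5983 and 5816 in WT and 5324 and 5143 in *Ccnyl1*-/- testes. *Odf1* and *Odf2*, which encode proteins of the outer dense fibres, make up the 4, with -0.14 and -0.12, but *Odf1* had 0.07 and -0.12 on its other probe sets and those of *Odf2* ran from -0.16 to 0.27. *Spatc1*, which encodes the centrosomal protein speriolin, and *Cntrob*, which encodes centrobin, had 0.08 each.

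Of 12 genes listed as partners of the 9, 5 lay above 0 and 7 below on the log2 scale (median -0.01), with *Klc3* and *Hook3* as above, *Myl6*, a myosin light chain, at -0.18 and *Syne1*, a nesprin, at 0.07. The probe sets of *Myl6*, *Syne1* and *Hook3* are rather dim, with mean signals of 121, 166 and 207, and their intervals span 0. An unadjusted p under 0.05 from limma was found for 1 of the 12, *Odf1*, which is also in the head-tail list. Among all 15268 tested genes 961 had one. Of 16 tubulins and microtubule factors, 6 lay above 0 and 10 below on the log2 scale (median -0.04). *Tubg1*, which encodes gamma-tubulin, had -0.16 and *Ttll9*, a tubulin glutamylase, -0.16 as well, with -0.19 and -0.14 on its other probe sets. *Mapre3*, a protein of microtubule ends, had 0.23 and *Tube1*, which encodes epsilon-tubulin, 0.17, with -0.35 and 0.14 on its other probe sets. The values 0.23 and 0.17 also come from rather dim probe sets, with mean signals of 179 and 196, and their intervals span 0. *Tubb4b*, a main beta-tubulin of the testis, had -0.10. It was the 1 gene of the 16 with an unadjusted p under 0.05 from limma, beside 961 of all 15268 tested genes.

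**Figure D4:**
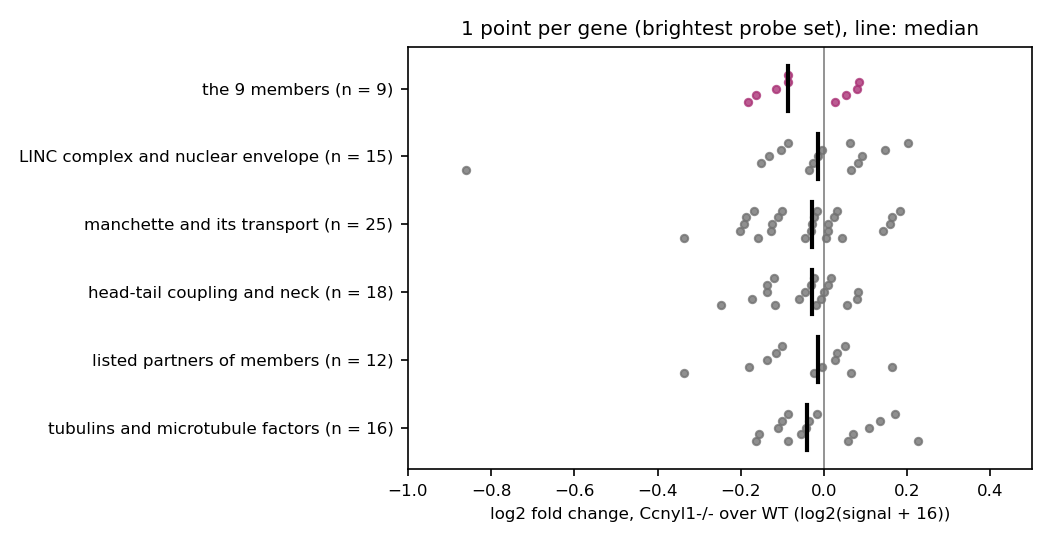
Difference (*Ccnyl1*-/- minus WT testis) in log2(signal + 16), 1 point per gene by its brightest probe set, with the median as a black line, for the 9 genes and 5 lists of related genes. The medians lie between -0.09 and -0.01, and a single gene, the dim *Syne4*, lies below -0.4.

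Markers of the spermatids in which these genes are active gave small values too. Of 10 marker genes of round spermatids, *Sun5* among them, 8 lay below 0 (median -0.11, or -0.10 without *Sun5*). Their summed signal, as a percent of its mean over the 4 mice, was 105 and 99.4 in WT testes, and 95.5 and 99.7 without *Ccnyl1*. Of 12 markers of elongating spermatids 9 were negative (median -0.05), with a summed signal of 99.5 and 102 against 101 and 97.6. *Hspa1l*, at -0.15, and *Smcp*, at 0.18, were the farthest on either side. An unadjusted p under 0.05 from limma was found for 1 of the 10 and 4 of the 12. Among the 4537 genes whose mean signal reached 1000, 437 had one. The *Ccnyl1*-/- mice lay below both WT mice for 3 of the 10 and 5 of the 12, and above both for 0 and 2. Of the 4537 genes, 27.6% lay below both and 655 above both. The part of germ cell numbers in the values of the 9 genes was not tested. Medians of the other lists were 0.02 for spermatogonia (*Gfra1* 0.27), 0.03 for spermatocytes (*Dmc1* -0.64 and, on another probe set, 0.06), 0.04 for Sertoli cells (*Amh* -0.82), 0.43 for Leydig cells (*Star* 0.57, and 0.44 and 0.57 on others), 0.10 for peritubular myoid cells (*Des* 0.87 and, on another, 0.20) and -0.11 for macrophages (*H2-Aa* -0.62, and -0.64 and 0.13 on others), and none of these genes passed. The value of *Amh* rests on dim signals of 66.2 and 35.7 in WT testes, and 39.4 and 8.59 without *Ccnyl1*. It went against most of its list, since 7 of the 11 Sertoli genes lay above 0 and 4 below. The brightest probe set of *Dmc1* did so too, since 6 of the 10 spermatocyte genes lay above 0 and 4 below. The summed Leydig signal differed more between mice of a genotype, 111 and 62.9 in WT and 144 and 82.4 in *Ccnyl1*-/- testes, than between genotypes. Only 2 of 6 epididymis markers and 2 of 3 blood markers with a probe set reached the minimum signal. The epididymis markers went opposite ways (median 0.45), with 1.06 for *Lcn8*, whose signals of 12.3, 26.2, 58.2 and 54.1 are near that minimum, and -0.15 for the brighter *Rnase10*, and the median for blood was -0.11 (*Slc4a1* -0.12), while 10 of 10 and 12 of 12 of the spermatid markers did.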

How the data were processed

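Testis RNA of 2 WT and 2 *Ccnyl1*-/- mice was hybridized to Affymetrix GeneChip arrays, 1 per mouse. The submitters' processing notes and the methods name MAS5, run with its defaults and a global scaling. What the authors deposited is the resulting intensity of each probe set, linear and corrected for background. The methods state a target of 100, while a trimmed mean of 500.0 was found on every array. Arrays give no read depth, and their number limits the precision. Levels of probe sets were set against each other within a gene, to take its brightest one and for the within-array ratios of *Hook1* and *Spata6*. Across genes they served for the minimum signal, for counts among bright probe sets and for the summed signals of marker lists. In those sums the brightest probe sets weigh most.

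Signals were used as deposited. Leaving out control probe sets, 45037 remained, of which the annotation of the platform names 1 gene for 34945, several for 932 and none for 9160, and gene identifiers were matched to the RefSeq table of GRCm38.p6. In R 4.3.3, log2(signal + 16) was fitted with limma 3.58.1 (lmFit, then eBayes letting the variance follow the mean) on genotype alone, for probe sets with a mean signal of at least 32, with Benjamini-Hochberg adjustment over all of them and a threshold of 0.05. Fold changes on this scale understate those of dim probe sets. The fit was tested on simulated data. Named were all probe sets of the 9 genes, *Ccnyl1*, the 2 highest and 2 lowest genes of each list and the farthest gene of each cell type list. *Sun1*, *Sun2*, *Spag16*, *Hook2*, *Tubb4b*, *Hspa1l*, *Odf1*, *Odf2* and *Rnase10* were named after their values were seen. Members and lists were chosen with earlier results of these data known. Alternatives were no offset, an offset of 32, no minimum, a minimum of 100, quantiles equalised, medians equalised, a robust eBayes or one with no trend, a block on replicate number, the t-test named in the methods, other choices of probe sets, and leaving out each mouse.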

Additional observations from a re-analysis of the deposited data

How the results depend on the processing

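No probe set of the 9 genes passed under any of the alternatives run or without any mouse (lowest adjusted p = 0.162 from limma, *Sun5* without WT replicate 2). Signs turned in 5 cases: *Hook1* 1438018_at (-0.0018) and *Sun3* (-0.028) with arrays scaled to one median, *Sun5* (0.038) without WT replicate 1 (-0.40 without replicate 2), and *Hook1* 1438018_at (-0.031) and 1439173_at (-0.038) without *Ccnyl1*-/- replicate 1 (0.14 and 0.45 without replicate 2). An unadjusted p under 0.05 was found for 0 of the 12 in limma without the variance trend and by the methods' t-test. With arrays scaled to one median it was found for 3 in limma. The number of the 12 with a negative log2 fold change ran from 5 to 8 without 1 mouse and was 8 with arrays scaled to one median. Their median, -0.03, was 0.0021 with quantile normalization, -0.083 with arrays scaled to one median, -0.087 with 1 probe set per gene and -0.034 to 0.039 without 1 mouse, so its sign is not settled. With no minimum signal the median was -0.083 over 13 probe sets, since the dim one of *Spata6* joins the 12. The dim *Spata6* probe set has signals near background, and its value holds only without a minimum.

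With arrays scaled to one median, which moves the median of all probe sets from 0.02 to -0.03, the list medians were -0.070 (nuclear envelope), -0.083 (manchette), -0.083 (head-tail coupling), -0.070 (partners) and -0.094 (tubulins). With quantile normalization they were, in the same order, -0.0062, -0.021, -0.030, 0.0010 and -0.014. With a gene's probe sets averaged they were -0.00075, -0.000987, -0.029, -0.026 and 0.0030. Without 1 mouse they ran from -0.078 to 0.013, -0.039 to -0.016, -0.063 to -0.011, -0.052 to 0.0060 and -0.073 to -0.032 in the order above. The causes were not tested.

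*Ccnyl1*, at -1.29, had an adjusted p of 0.596 in limma without the variance trend and 0.723 by the methods' t-test, both with -1.29, and -1.35 to -1.24 without 1 mouse. Probe sets called among all numbered 4, and 0 without the trend (1906 at an unadjusted p under 0.05 in limma) and by the methods' t-test (1900), 14 with the replicate block, and 6 to 55 without 1 mouse (46 and 55 without WT replicates 1 and 2, 7 without *Ccnyl1*-/- replicate 1). The labels do not say whether the replicate numbers pair the mice. Deviations of same-numbered mice had a correlation of 0.01 over all tested probe sets, which cannot show whether they were paired. With the block the lowest adjusted p of the 12 was 0.582 from limma.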
